A study of Mus musculus with 16 samples.

Results

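The comparison described here asked which RNAs sat on the ribosomes of PNOC neurons, relative to whole hypothalamus, in mice whose leptin receptor gene Lepr had been deleted in those neurons. It set 4 pulldown libraries against the 4 input libraries made from the same lysates, 8 of the 16 libraries of the series. Of 45706 gene rows, the 13704 with a mean CPM (counts scaled to library size) of at least 1 over the 8 libraries were tested. All mice carried a Cre-dependent ROSA-STOP-L10a-bactrap allele, which puts a GFP tag on the ribosomal protein L10a. The deletion group had the genotype "Pnoc Lepr deletion" (pools 5 to 8), and the control group, used here only for a final comparison, was labelled Lepr-flox (pools 1 to 4). Every mouse was on a C57Bl/6N background, chow-fed, sampled random-fed in the morning, and 12 weeks old by one label or 10 to 12 weeks old by another. Each pool held hypothalami of 4 animals, so the spread between libraries is one between pools and not between single mice. The sex of the animals, the extent of recombination and how the control mice came to carry the tag without losing Lepr are not stated in these sources.

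In bacTRAP, translating ribosomes that carry the tagged L10a are captured with anti-GFP antibodies, and the RNA bound to them is sequenced beside RNA of the whole lysate. Because removal of a STOP cassette is permanent, a cell keeps the tag once Cre has acted in it. PNOC neurons make prepronociceptin, the precursor of the opioid-like peptide nociceptin, and those of the hypothalamus are largely inhibitory cells that release GABA and often further neuropeptides. Leptin, a hormone from fat tissue, acts on hypothalamic neurons through Lepr and the kinase and transcription factor pair JAK2 and STAT3 to restrain feeding.

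Promoters of 2 peptide genes that recur below are printed because each holds the cAMP response element, a site bound by CREB-family factors, within the 300 bases around its gene start. The element searched was TGACGTCA, which reads the same on both strands. No other motif was searched. Capitals mark it in the sequences, which are from RefSeq (GRCm38.p6), run 5′ to 3′ on the gene's own strand, and cover 250 bases before and 50 after the start. The window of Sst (somatostatin) is chr16:23890795-23891094 on the minus strand, and that of Cartpt (the CART peptide precursor) is chr13:99900634-99900933 on the minus strand.
Sst: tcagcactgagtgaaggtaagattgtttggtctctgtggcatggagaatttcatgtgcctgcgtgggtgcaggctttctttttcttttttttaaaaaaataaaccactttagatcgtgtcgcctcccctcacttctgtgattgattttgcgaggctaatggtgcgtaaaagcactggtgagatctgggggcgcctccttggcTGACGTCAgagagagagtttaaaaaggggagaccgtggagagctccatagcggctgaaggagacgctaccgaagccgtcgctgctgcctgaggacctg
Cartpt: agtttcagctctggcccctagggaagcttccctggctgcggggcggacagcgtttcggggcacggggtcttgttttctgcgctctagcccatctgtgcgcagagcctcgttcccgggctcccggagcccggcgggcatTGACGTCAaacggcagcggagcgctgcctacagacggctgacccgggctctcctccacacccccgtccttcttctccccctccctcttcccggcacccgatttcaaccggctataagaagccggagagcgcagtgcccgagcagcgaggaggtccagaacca
The element begins 48 bases before the start of Sst and 112 bases before that of Cartpt. It was found in 588 of 32851 promoter windows of that length (1.79%). Of the 24 peptide precursor genes tested 20 had a window, and 2 of those genes held it, in 2 of 29 windows (6.9%). Of the 12 genes with the largest enrichment 7 had a window, and Sst alone held it, in 1 of 8 windows (12.5%). Both windows of Ghrh lacked these letters.

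Libraries held 64435952 to 78623636 estimated counts, and totals of input and pulldown overlapped (exact permutation p = 0.4, two-sided). Mitochondrial ribosomal RNA took 24.5% ± 0.973 of input counts and 0.0649% ± 0.00236 of pulldown counts (SD, n = 4 each), and mitochondrially encoded mRNA 3.90% ± 0.218 and 0.0203% ± 0.00118. Each of these shares did not overlap between the groups (exact permutation p = 0.0286, the smallest that 4 against 4 libraries allow). The number of genes detected was 22765 to 23109 per library in input and 21324 to 21774 in pulldown.

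The markers given for these neurons, Pnoc (chr14:65400673-65425564, GRCm38.p6 as for all positions here), Gad1 (chr2:70561303-70602014), Sst (chr16:23889573-23891342) and Ghrh (chr2:157329496-157348725), were all higher in pulldown. Pnoc itself had 2.29, 2.56, 2.71 and 3.00 CPM in the input of pools 5 to 8 and 9.18, 8.58, 7.96 and 6.87 CPM in their pulldown, on the TMM scale that adjusts for library composition. All 4 pulldown values lay above all 4 input values, with a log2 fold change of 1.63 (SE 0.12). Pool 5 had the largest ratio within a pool and pool 8 the smallest. Sst, the precursor of somatostatin, which inhibits growth hormone release, had 53.8, 57.6, 46.6 and 59.3 CPM in input and 225, 231, 216 and 236 CPM in pulldown, a log2 fold change of 2.06 (SE 0.07). Ghrh, growth hormone-releasing hormone, had 7.67, 10.2, 11.2 and 9.46 CPM in input and 44.9, 45.1, 50.3 and 49.2 CPM in pulldown, a log2 fold change of 2.30 (SE 0.10). Gad1, an enzyme that makes GABA, had 199, 199.8, 178 and 186 CPM in input and 382, 398, 381 and 399 CPM in pulldown, a log2 fold change of 1.03 (SE 0.05). None of the 3 overlapped between the groups, and input and pulldown kept the same order in every pool. In bulk libraries like these, fewer cells of a type and less RNA per cell cannot be told apart. Per length, on the TPM scale, which divides counts by transcript length and rescales them to a fixed total, the pulldown held far more Sst (1418 ± 73.4) than Ghrh (377 ± 33.7), Gad1 (337 ± 13.3) or Pnoc (10.3 ± 1.01; SD, n = 4 each). Pnoc was thus the scarcest of the 4 markers in the captured RNA.

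**Figure D1:**
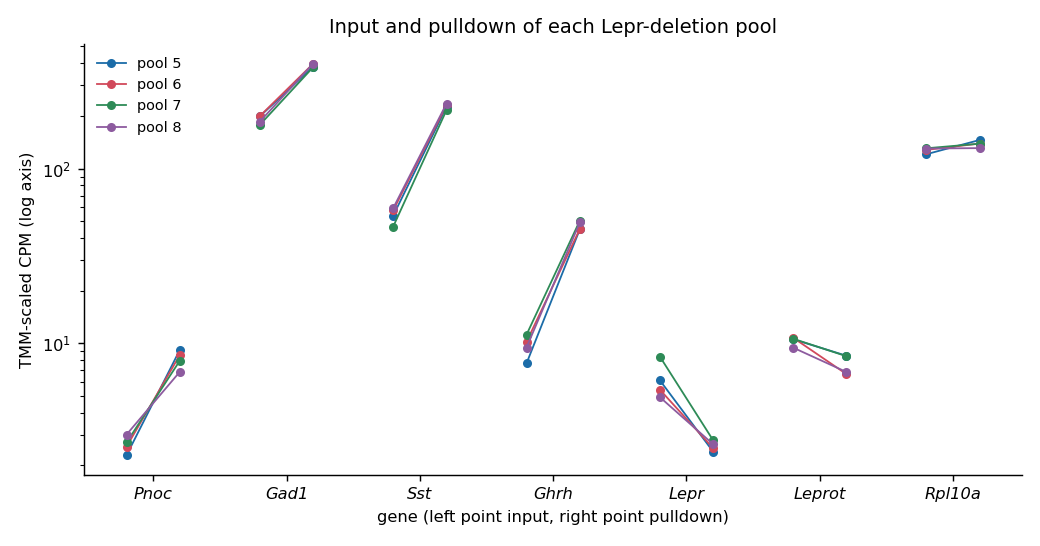
TMM-scaled CPM (log axis) of 7 genes in input (left point) and pulldown (right point), with a line for each of the 4 Lepr-deletion pools. Pnoc, Gad1, Sst and Ghrh rise from input to pulldown in every pool, Lepr and Leprot fall, and Rpl10a is nearly level.

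Lepr (chr4:101717137-101815352) was lower on the captured ribosomes than in the lysate. It had 6.14, 5.43, 8.40 and 4.92 CPM in input and 2.39, 2.51, 2.78 and 2.64 CPM in pulldown, with no overlap and a log2 fold change of -1.27 (SE 0.16). Limma on log2(TPM + 1) gave -0.09 (adjusted p = 0.382), so the call did not hold on that scale. In control pools the enrichment of Lepr was -1.48, and the difference between genotypes was 0.20 (SE 0.22), adjusted p = 0.799. Scaled together, Lepr had 1.82, 1.39, 1.61 and 1.51 CPM in control pulldown, below the 2.37, 2.48, 2.76 and 2.62 CPM of the deletion pulldown. In input the mean was likewise higher after deletion, at 6.17 ± 1.52 CPM against 4.38 ± 0.712 CPM in control (SD, n = 4 each). Neither difference in level was tested. Such gene-level values pool all isoforms and exons. The sources used here do not name the deleted exons, and these values therefore check nothing about the deletion. Leprot, a neighbouring gene whose protein affects receptor trafficking, had 10.5, 10.8, 10.6 and 9.44 CPM in input and 8.48, 6.66, 8.43 and 6.85 CPM in pulldown. Its log2 fold change of -0.44 (SE 0.10) turned to 0.07 with scaling by totals and to 0.45 on log2(TPM + 1). Rpl10a, the gene of the tagged protein, had 121, 128, 131 and 130.2 CPM in input and 146, 139, 139 and 131 CPM in pulldown, a log2 fold change of 0.12 (SE 0.05), adjusted p = 0.0376. That call was lost in 8 of 12 fits that left out a library or a pool, with adjusted p up to 0.141 without pool 5.

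Across all tested genes, 8746 (63.8%) passed edgeR's quasi-likelihood test at an adjusted p under 0.05, 4181 higher in pulldown (30.5%) and 4565 lower (33.3%). The lower side reached much further. Only 89 genes (0.649%) were higher by more than 2-fold, whereas 1745 (12.7%) were lower by more than 2-fold and 257 by more than 16-fold. Pulldown and input libraries did not overlap for 3669 genes that were higher (26.8%) and 4240 that were lower (30.9%). Direction was relative. Scaling by library totals moved the median of all genes by 0.51 on the log2 scale and made 81.3% of the called genes higher, against 47.8% with TMM. With mitochondrially encoded genes removed before taking totals, that shift was 0.03 and the share 51.3%. On log2(TPM + 1) the shift was 0.85 and the share 88.8%. In the authors' deposited table of the same comparison 11646 of 23248 genes with an adjusted p passed, and the 8072 genes called both there and here had the same sign in each case. Values below are TMM-scaled, and a gene whose sign turned under another scaling is named as such.

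**Figure D2:**
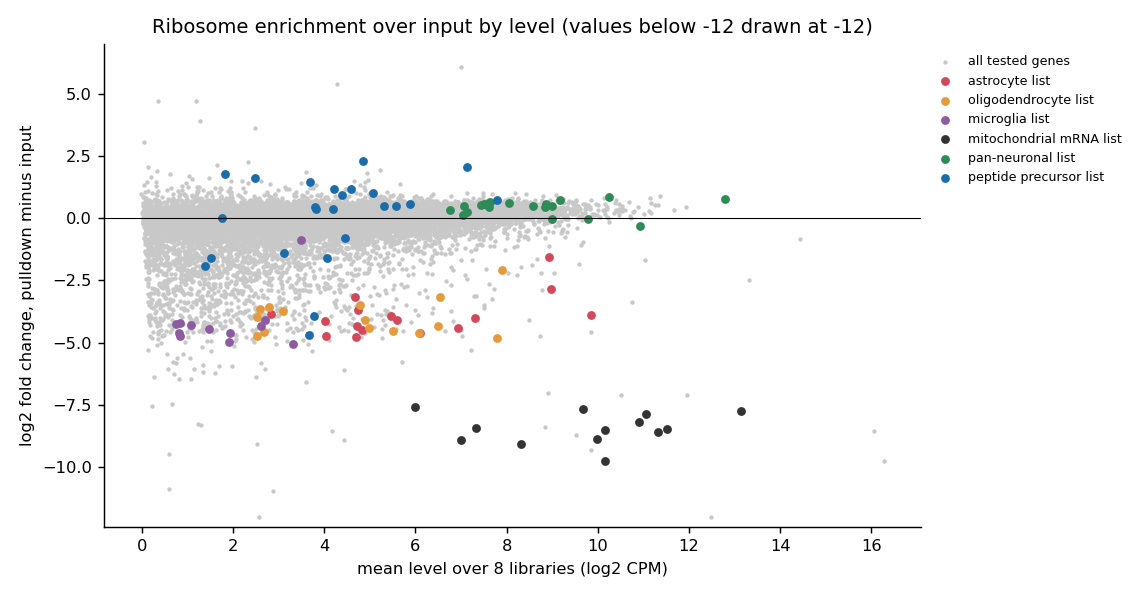
Log2 fold change of pulldown over input against the mean log2 CPM of the 8 libraries for the 13704 tested genes, with 6 gene lists coloured and values below -12 drawn at -12. Astrocyte, oligodendrocyte and microglia lists lie near -4, mitochondrially encoded mRNA near -8, and the pan-neuronal list just above 0, while peptide precursors spread from -4.71 to 2.30.

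The 12 largest increases among genes with ordinary symbols and a mean log2 CPM of at least 2 held Ghrh, Sst and Pnoc, with genes of several other kinds. Crabp1, a retinoic acid-binding protein, had 10.5, 15.6, 16.9 and 17.6 CPM in input and 51.0, 60.5, 59.0 and 63.9 CPM in pulldown, a log2 fold change of 1.95 (SE 0.13). Foxb1 and Onecut3, a forkhead and a homeobox transcription factor, were higher by 1.53 and 1.50, with Foxb1 at 15.8 ± 1.81 CPM in input and 45.7 ± 6.66 CPM in pulldown. Both exceed the fold change of Gad1. Cd72, known as a B-cell surface protein, had 2.40, 1.13, 1.66 and 1.47 CPM in input and 7.69, 7.62, 8.57 and 8.20 CPM in pulldown, a log2 fold change of 2.28 (SE 0.18). Pgam5, a mitochondrial phosphatase, was higher by 1.81, and Snhg3, a host gene of small nucleolar RNA, by 1.84. Yipf2 (1.49), Mab21l2 (1.48) and Ctxn3 (1.44) completed the 12, a group chosen to have no overlap between input and pulldown. Larger values belonged to gene models without an ordinary symbol, named here after their values were seen. Gm20721 had 3.25, 4.22, 4.38 and 3.12 CPM in input and 228, 278, 254 and 252 CPM in pulldown, a log2 fold change of 6.07 (SE 0.11), and Gm26899 had 1.25, 1.22, 0.384 and 0.656 and 37.4, 36.6, 39.4 and 35.6 CPM, a log2 fold change of 5.40 (SE 0.20). Gm26883 was higher by 3.64. Reads of a gene model and of a gene overlapping it cannot be told apart, since no strand setting is named in these sources.

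Neuropeptide precursors split into a larger group that was higher on the captured ribosomes and a smaller group that was lower. Of 37 listed precursors 24 passed the level filter, of which 16 were higher, 7 lower and 1 was not called, against 30.5% and 33.3% of all genes (median log2 fold change 0.47, and 0.00 over all genes). The 16 include Pnoc, Sst and Ghrh, markers given for these neurons and already described above. Gnrh1, gonadotropin-releasing hormone, had 1.23, 1.92, 1.78 and 1.19 CPM in input and 5.19, 5.88, 6.36 and 3.50 CPM in pulldown, a log2 fold change of 1.77 (SE 0.21). Nts, neurotensin, had 6.46, 8.84, 6.93 and 5.11 CPM in input and 18.1, 26.4, 15.8 and 13.6 CPM in pulldown, a log2 fold change of 1.44 (SE 0.20). Every pulldown value of both genes lay above every input value. Gal, galanin, had 13.4, 14.7, 13.7 and 16.5 CPM in input and 30.8, 37.0, 32.9 and 32.1 CPM in pulldown, a log2 fold change of 1.19 (SE 0.08). Trh, thyrotropin-releasing hormone, had 14.8, 11.3, 11.5 and 8.32 CPM in input and 35.4, 23.9, 23.2 and 19.7 CPM in pulldown, a log2 fold change of 1.15 (SE 0.18). Penk, the enkephalin precursor and an opioid relative of Pnoc, had 27.6, 19.5, 21.7 and 19.3 CPM in input and 57.9, 45.7, 42.5 and 33.9 CPM in pulldown, a log2 fold change of 1.03 (SE 0.15). In these 3 genes too the groups did not overlap.

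Feeding peptides made in the arcuate nucleus and lateral hypothalamus went different ways. Npy, neuropeptide Y, which stimulates feeding, had 12.4, 13.6, 13.1 and 18.1 CPM in input and 24.7, 27.8, 28.3 and 28.9 CPM in pulldown, a log2 fold change of 0.94 (SE 0.11). Agrp, agouti-related peptide, which arcuate NPY neurons also make, had 2.93, 3.48, 3.74 and 3.38 CPM in input and 3.11, 2.74, 3.86 and 3.72 CPM in pulldown, a log2 fold change of -0.01 (SE 0.14), adjusted p = 0.949. The Agrp groups overlapped. Its sign depended on scaling, at 0.49 with library totals (adjusted p = 0.00706) and 0.90 on log2(TPM + 1), and the difference between Npy and Agrp was not tested. Pomc, the precursor of appetite-suppressing melanocortins, had 23.3, 26.2, 27.3 and 24.1 CPM in input and 8.56, 8.72, 7.70 and 8.25 CPM in pulldown, a log2 fold change of -1.60 (SE 0.07). Cartpt, which is often made beside Pomc, had 33.5, 32.1, 33.9 and 33.5 CPM in input and 49.9, 49.8, 44.8 and 40.1 CPM in pulldown, a log2 fold change of 0.47 (SE 0.07). Pomc and Cartpt thus lay on opposite sides, with no overlap of groups in either. Pmch, melanin-concentrating hormone of the lateral hypothalamus, had 229, 144, 166 and 125 CPM in input and 335, 280.2, 275 and 224 CPM in pulldown. Its groups overlapped through the 229 CPM of input pool 5, yet pulldown exceeded input within each of the 4 pools, at a log2 fold change of 0.74 (SE 0.16). Hcrt, orexin, from the same region, had 17.3, 10.6, 13.5 and 9.40 CPM in input and 7.16, 3.95, 5.54 and 2.54 CPM in pulldown, a log2 fold change of -1.40 (SE 0.27), which on log2(TPM + 1) was -0.46 (adjusted p = 0.107).

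The lowest values belonged to the magnocellular hormones. Avp, vasopressin, had 27.3, 23.3, 31.4 and 17.8 CPM in input and 1.20, 1.04, 0.802 and 0.742 CPM in pulldown, a log2 fold change of -4.71 (SE 0.20). Oxt, oxytocin, had 25.5, 32.2, 28.2 and 17.8 CPM in input and 1.74, 2.05, 1.90 and 0.976 CPM in pulldown, a log2 fold change of -3.95 (SE 0.22). Each pulldown value of both hormones was far below every input value. Npvf, the precursor of RFamide peptides of the dorsomedial hypothalamus, fell by 1.93 on the log2 scale, to 1.12 ± 0.162 CPM in pulldown. Vip, vasoactive intestinal peptide of the suprachiasmatic nucleus, had 4.31, 4.22, 3.21 and 5.97 CPM in input and 0.619, 1.83, 2.06 and 1.30 CPM in pulldown, a log2 fold change of -1.60 (SE 0.30) with an uneven spread among pulldown libraries. Pdyn, the dynorphin precursor, had 26.4, 28.1, 26.8 and 31.1 CPM in input and 15.6 to 17.1 CPM in pulldown, at -0.80 (SE 0.07), a sign that turned to 0.10 on log2(TPM + 1). The other precursors that passed were modestly higher. These were Tac1, the substance P precursor (0.56), Adcyap1, which encodes PACAP (0.47), Tac2, neurokinin B (0.47), the growth factor Bdnf (0.38) and Cck, cholecystokinin (0.36). The call of Tac2 was lost in 5 of the fits that left out a library or pool, at adjusted p of 0.0591 to 0.0699, and that of Cck in the fit of all 16 libraries, at adjusted p = 0.0699. Among these peptides the pulldown held, per length, most Sst and Pmch (1418 ± 73.4 and 1277 ± 179.7 TPM), ahead of Ghrh, and Sst and Pmch did not differ beyond their spread.

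**Figure D3:**
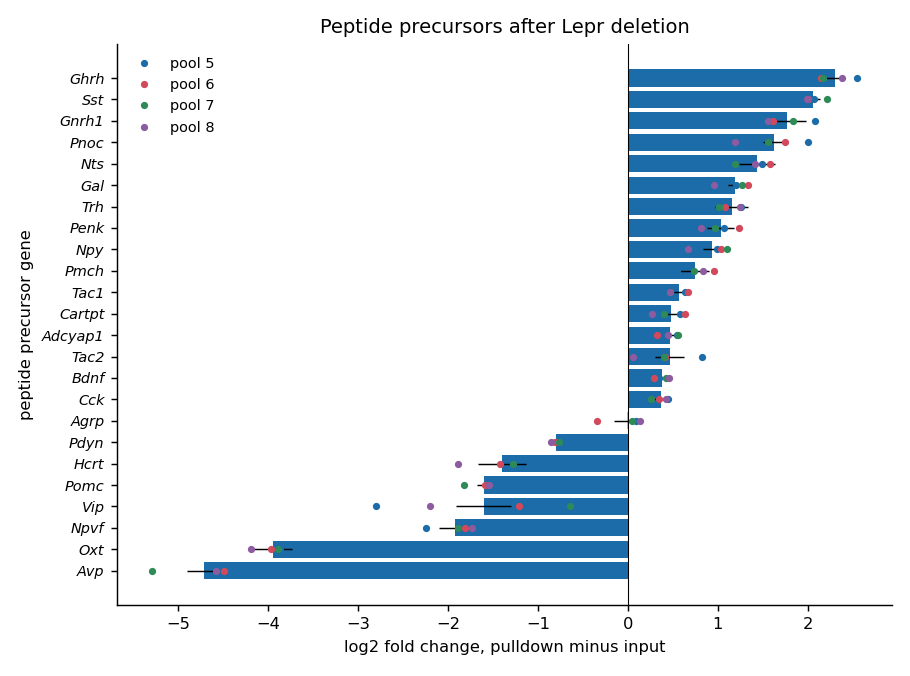
Log2 fold change of pulldown over input for the 24 tested peptide precursors (bars, with the SE of the fit) and the log2 ratio within each of the 4 pools (points). From Ghrh down to Cck all 4 points lie above 0, and from Pdyn down to Avp all 4 lie below it.

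The transcripts of GABA neurons were largely higher in pulldown, and those of glutamate neurons went both ways. Of the GABAergic list 12 of 16 tested members (75%) were higher and 3 (18.8%) lower (median log2 fold change 0.87), against 30.5% and 33.3% of all genes. Gad2, the second GABA-synthesising enzyme, had 1647 ± 138 CPM in input and 2889.9 ± 129.8 CPM in pulldown (SD, n = 4 each), which is a log2 difference of 0.81 (SE 0.06). The homeobox genes Dlx2 and Lhx6, which specify forebrain GABA neurons, were higher by 1.20 and 1.41. Maf was lower, at -1.48 (adjusted p = 0.057 on log2(TPM + 1)). Of the glutamatergic list 5 of 11 tested members (45.5%) were higher and 5 (45.5%) lower (median log2 fold change 0.22). Slc17a6, the vesicular glutamate transporter VGLUT2, had 209.9, 165, 175 and 177 CPM in input and 245, 187, 212 and 199 CPM in pulldown. Its groups overlapped, and its log2 fold change of 0.22 (SE 0.09), adjusted p = 0.0449, did not pass in 8 of the 12 fits that left out a library or pool, at adjusted p of 0.0601 to 0.144. Sim1, a factor of paraventricular neurons, was higher by 0.66. Lmx1a and Lmx1b, markers of posterior hypothalamic and midbrain glutamate or dopamine neurons, were lower, at -2.61 and -1.97.

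Some genes of monoamine neurons were higher. Of 13 listed monoaminergic, cholinergic and histaminergic neuron genes 7 were tested, of which 4 were higher, 1 was lower and 2 were not called (median log2 fold change 0.59). These are 57.1% and 14.3%, against 30.5% and 33.3% of all genes. Th, the rate-limiting enzyme of dopamine synthesis, had 23.0 ± 1.01 CPM in input and 41.5 ± 3.29 CPM in pulldown, a log2 fold change of 0.85 (SE 0.06). Ddc, which makes dopamine from its precursor, was higher by 0.65, Slc18a2, the vesicular monoamine transporter, by 0.67, and Hdc, which makes histamine, by 0.59. Gch1, which makes a cofactor of monoamine synthesis, was at -0.51 (SE 0.10), a sign that turned to 0.0021 with library totals and 0.35 on log2(TPM + 1). The dopamine transporter Slc6a3, at -0.48 (SE 0.31), was not called (adjusted p = 0.192), and its sign turned to 0.04 with library totals, 0.41 on log2(TPM + 1) and 0.08 without pool 5.

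Hypothalamic transcription factors varied over a wide range. Of the list 16 of 35 tested members (45.7%) were higher and 11 (31.4%) lower (median log2 fold change 0.19), against 30.5% and 33.3% of all genes, so the lower share was near that of all genes. By more than 2-fold 5 were higher and 6 lower, and over all genes those shares were 0.649% and 12.7%. Otp, which specifies neuroendocrine and AgRP neurons, was higher by 0.77, and Zfhx4 by 0.42. Nkx2-2, a factor also found in oligodendrocyte precursors, fell to 0.936 ± 0.152 from 5.84 ± 0.683 CPM, a log2 fold change of -2.64 (SE 0.16), and Lhx9 was lower at -1.70.

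General neuronal machinery was moderately higher. Of the pan-neuronal list 17 of 20 tested members (85%) were higher and 1 (5%) lower (median log2 fold change 0.50), against 30.5% and 33.3% of all genes. Snap25, a core protein of synaptic vesicle fusion, had 5216 ± 279 CPM in input and 9015 ± 198 CPM in pulldown, a log2 fold change of 0.79 (SE 0.04), and Ndrg4 was higher by 0.86. Of the synaptic list 21 of 28 tested members (75%) were higher and 3 (10.7%) lower (median log2 fold change 0.37), with the vesicle proteins Vamp1 at 1.03 and Vamp2 at 0.60 and the fusion clamp Cplx1 at 0.97. Of the list for peptide processing and dense-core vesicles 12 of 18 tested members (66.7%) were higher and 2 (11.1%) lower (median log2 fold change 0.35). Scg2 and Chgb, granins of dense-core vesicles, were higher by 0.35 and 0.49, Cadps, which primes those vesicles, by 0.63, and Qpct, which caps peptides such as TRH, by 0.71. Cpe, carboxypeptidase E, which trims peptide precursors, was at -0.96 with 1085 ± 32.3 CPM in input and 559 ± 42.3 CPM in pulldown, a sign that was at 0.0016 on log2(TPM + 1).

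Each of the 5 channel and receptor lists held more higher than lower members. Of the potassium channel list 14 of 32 tested members (43.8%) were higher and 7 (21.9%) lower (median log2 fold change 0.20), against 30.5% and 33.3% of all genes. The neuronal channels Kcnj3 and Kcnj9, subunits of the G protein-gated current that opioid-type receptors open, were higher by 0.69 and 0.67. Kcnj10 and Kcnj16, which serve potassium uptake in astrocytes, were lower, at -4.72 and -3.71. Of the sodium, calcium, HCN and TRP channel list 16 of 32 tested members (50%) were higher and 5 (15.6%) lower (median log2 fold change 0.24), with the calcium channel subunit Cacnb3 at 0.73, the sodium channel Scn1a at 0.64, Trpm3 at -1.83 and Trpc6 at -1.58. Of the GABA and glycine receptor list 13 of 19 tested members (68.4%) were higher and 1 (5.26%) lower (median log2 fold change 0.28), led by the glycine receptor Glra2 at 0.71. Of the glutamate receptor list 10 of 24 tested members (41.7%) were higher and 4 (16.7%) lower (median log2 fold change 0.11). Grm2 and Grm4, presynaptic receptors that inhibit release, were higher by 1.24 and 0.96. Grin2c and Grm3, which astrocytes express among other cells, were lower, at -5.28 and -1.66, and the AMPA receptor gene Gria1 was at -0.82, or 0.12 on log2(TPM + 1). Of the peptide and hormone receptor list 15 of 42 tested members (35.7%) were higher and 11 (26.2%) lower (median log2 fold change 0.05), shares near those of all genes (30.5% and 33.3%). The somatostatin receptor Sstr2 had 4.38, 4.69, 3.25 and 3.90 CPM in input and 8.26, 5.92, 7.10 and 6.14 CPM in pulldown, and the receptor of the gut hormone GLP-1, Glp1r, had 7.01, 5.22, 6.32 and 6.26 and 10.1, 9.93, 9.48 and 11.9 CPM. Neither overlapped between groups, at log2 fold changes of 0.76 (SE 0.14) and 0.74 (SE 0.11). Thra, a thyroid hormone receptor, was higher by 0.40.

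The leptin signalling list leaned lower with TMM scaling. Of its members 3 of 21 tested (14.3%) were higher and 12 (57.1%) lower, against 30.5% and 33.3% of all genes. The list's median was -0.38. With library totals the median became 0.13, and it was 0.50 on log2(TPM + 1). Higher members were Asb4, a gene of leptin-responsive neurons (0.54), Jak1 (0.23) and Sh2b1, an adaptor of JAK2 (0.31). Gbp7, an interferon-inducible GTPase, was lowest, at -2.19 (SE 0.11), and Lepr and Serpina3n were at -1.27 and -1.17. Stat3, named here after its value was seen, was at -0.71 with TMM scaling. Its values under other scalings are not reported here. Of the AgRP neuron list 5 of 11 tested members (45.5%) were higher and 4 (36.4%) lower, the lower share being near the 33.3% of all genes. The list's median of -0.01 is the value of Agrp itself and turned with it under other scalings. The extremes of the list were Sst, itself a marker given for the PNOC neurons, and Bmpr1b, a receptor of bone morphogenetic proteins, at -4.22 (SE 0.12).

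Mitochondrial genes divided by where they are transcribed. Of the 13 mitochondrially encoded mRNAs, which are translated inside the organelle by its own ribosomes, all 13 were lower (median log2 fold change -8.47). mt-Co1 had 17922 ± 1645 CPM in input and 84.4 ± 9.92 CPM in pulldown, a log2 fold change of -7.73 (SE 0.11), and mt-Nd4, mt-Nd6 and mt-Atp6 were at -8.47, -9.06 and -9.76. Mitochondrial ribosomal RNA reached -8.54 for mt-Rnr1 and -9.76 for mt-Rnr2. In contrast, nuclear genes of oxidative phosphorylation, whose mRNA is read by cytosolic ribosomes, were mostly higher. Of 35 tested, 33 (94.3%) were higher and none lower (median 0.33), against 30.5% and 33.3% of all genes. Cox5a had 89.6 ± 4.33 CPM in input and 145 ± 11.3 CPM in pulldown, a log2 fold change of 0.69 (SE 0.06), with Uqcrb at 0.68 and the ATP synthase subunit Atp5b at 0.33. Of the 12 largest decreases by the same rule as above, 11 were mitochondrially encoded. The other was a gene model that shares the symbol Yam1 with a second one. It had 13654, 9183, 11672 and 11159 CPM in input and 0 counts in every pulldown library, at least 1296670-fold lower with a floor of 3 counts over the group. Near-identical copies can trade reads in the authors' estimates, so this value is uncertain.

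Genes of the translation machinery stayed close to the middle of all genes. Of the large-subunit ribosomal protein list 17 of 46 tested members (37%) were higher and 4 (8.7%) lower (median log2 fold change 0.07), against 30.5% and 33.3% of all genes, and of the small-subunit list 8 of 32 tested members (25%) were higher and 5 (15.6%) lower (median log2 fold change 0.03). Rpl31 and Rpl15 were higher by 0.34 and 0.34, and Rps25 by 0.34. Ribosomal protein genes together took 1.34% ± 0.0888 of input counts and 2.00% ± 0.103 of pulldown counts (SD, n = 4 each, exact permutation p = 0.0286). Mitochondrial RNA, which makes up part of the same totals, took a smaller share in pulldown, and its part in this share was not tested. Of the translation factor list 12 of 30 tested members (40%) were higher and 3 (10%) lower (median log2 fold change 0.10), with Eif1, which selects start codons, at 0.41 and the elongation factor Eef1g at 0.37.

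Most listed long noncoding RNAs were lower with TMM scaling. With library totals 6 were higher and 19 lower, against 9522 and 2185 of all genes. On log2(TPM + 1) 12 were higher and 13 lower (median -0.01), against 11207 and 1407 of all genes. Of the list of long noncoding RNAs and host genes of small nucleolar RNA 4 of 29 tested members (13.8%) were higher and 22 (75.9%) lower (median log2 fold change -1.09), against 30.5% and 33.3% of all genes. Malat1, held in nuclear speckles, had 7823 ± 1314 CPM in input and 57.4 ± 3.01 CPM in pulldown, a log2 fold change of -7.09 (SE 0.12). Neat1, the scaffold of paraspeckles, was at -5.04 and the imprinted RNA Meg3 at -4.58. Snhg3 and Peg13, annotated as noncoding, went the other way, at 1.84 and 0.75. Over 418 tested genes annotated as long noncoding RNA, 17.2% were higher and 37.6% lower, against 31.5% and 33.1% of 12646 protein-coding genes. Among protein-coding genes with a length, the median log2 fold change went from 0.14 in the shortest of 5 length bins (2281 genes) to -0.11 in the longest (2672 genes; Spearman's rho -0.193 across 12640 genes, which are not independent replicates).

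All tested markers of glia were lower in pulldown, against 33.3% of all genes. The level filter used the mean of input and pulldown. A marker could thus pass through its input level alone, which favours lower values. Below the filter fell 1 of 10 listed markers of oligodendrocyte precursors and 4 of 16 listed microglial markers. Of 16 astrocyte markers all 16 were lower (median -4.04), and their summed level was 4378 to 4611 CPM in input and 529 to 586 CPM in pulldown. Gfap, the astrocyte filament protein, had 49.7, 50.8, 55.8 and 44.7 CPM in input and 1.74, 1.58, 2.27 and 1.71 CPM in pulldown, a log2 fold change of -4.78 (SE 0.11), and the glutamate transporter Slc1a2 was at -3.89. Aldoc, also present in some neurons, fell least among them, at -1.55. All 15 oligodendrocyte markers were lower (median -4.09, summed level 1311 to 1804 CPM in input and 143 to 176 CPM in pulldown), with the myelin gene Mbp at -2.08. All 9 tested markers of oligodendrocyte precursors were lower (median -4.07, summed level 169 to 184 CPM in input and 22.6 to 25.9 CPM in pulldown), with Pdgfra at -4.45 and Cacng4 at -0.58, which turned to 0.35 on log2(TPM + 1). All 12 tested microglial markers were lower (median -4.39, summed level 89.9 to 105 CPM in input and 10.8 to 12.0 CPM in pulldown), with Tyrobp at -5.06 and P2ry12 at -4.97. No tested marker on these 4 lists was at 0 in any pulldown library. Their part in the other values was not tested.

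Ependymal, vascular, blood and pituitary markers were mostly lower as well, against 33.3% of all genes. The same filter left out 10 of 17 listed vascular markers and 2 of 14 listed tanycyte and ependymal markers. It also left out 4 of 12 listed markers of blood, pituitary and choroid plexus and 4 of 14 of neighbouring regions. All 12 tested tanycyte and ependymal markers were lower (median -3.02, summed level 157 to 174 CPM in input and 43.6 to 47.2 CPM in pulldown), with Dio2, which activates thyroid hormone, at -3.35 and Vim at -1.97. All 7 tested vascular markers were lower (median -2.33, summed level 52.7 to 109 CPM in input and 6.38 to 18.1 CPM in pulldown), with the pericyte gene Rgs5 at -3.91. Of 8 tested markers of blood, pituitary and choroid plexus, 7 were lower (median -4.62, summed level 113 to 164 CPM in input and 16.2 to 16.8 CPM in pulldown), with haemoglobin Hbb-bs at -4.77 and the pituitary hormone subunit Cga at -4.94. Markers of neighbouring brain regions were higher in 3 (30%) and lower in 7 (70%) of 10 tested, against 30.5% and 33.3% of all genes. The higher share was thus near that of all genes. The list's median of -0.40 became 0.11 when library totals were used. Ppp1r1b, DARPP-32 of striatal neurons, was lowest at -3.14, while the dopamine receptor Drd2 was at 0.78 and Camk2a, a kinase of excitatory neurons, at 0.37.

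With TMM scaling, 18 of 22 genes of cholesterol synthesis (81.8%) were lower and none higher (median -0.56), against 33.3% and 30.5% of all genes. The calls depended on scaling. With library totals 6 were higher and 7 lower, and on log2(TPM + 1) 18 were higher and none lower (median 0.34). Lss was at -0.97 (-0.04 on log2(TPM + 1), adjusted p = 0.578). Of 22 listed interferon-inducible and antigen presentation genes 7 fell below the level filter. With TMM scaling 14 of the 15 tested (93.3%) were lower and 1 (6.67%) higher (median -1.54), against 33.3% and 30.5% of all genes. With library totals 9 were lower and 2 higher, and on log2(TPM + 1) 9 were lower and 5 higher. B2m was at -1.62 and H2-Aa at -4.03, and Ifit2 was higher at 0.35. Of the heat shock list 15 of 26 tested members (57.7%) were higher and 4 (15.4%) lower (median log2 fold change 0.15), against 30.5% and 33.3% of all genes, with the chaperones Hsp90aa1 at 0.54 and Hspe1 at 0.48, and Cryab, abundant in oligodendrocytes, at -4.15. Of the proteasome list 19 of 33 tested members (57.6%) were higher and 3 (9.09%) lower (median log2 fold change 0.17), with Psmd3 at 0.55 and the immunoproteasome subunit Psmb8 at -2.43. Of the list for protein secretion and the endoplasmic reticulum 10 of 32 tested members (31.2%) were higher and 6 (18.8%) lower (median log2 fold change 0.02), with Srp14 at 0.45 and Sec63 at -0.97 (-0.18 on log2(TPM + 1), adjusted p = 0.184). Of the list for nuclear architecture and splicing 7 of 25 tested members (28%) were higher and 4 (16%) lower (median log2 fold change 0.03). Of the immediate early genes 5 of 19 tested members (26.3%) were higher and 7 (36.8%) lower (median log2 fold change 0.14), shares near those of all genes, with Fos at 0.58, Jun at 0.32 and Nptx2 at -1.49.

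**Figure D4:**
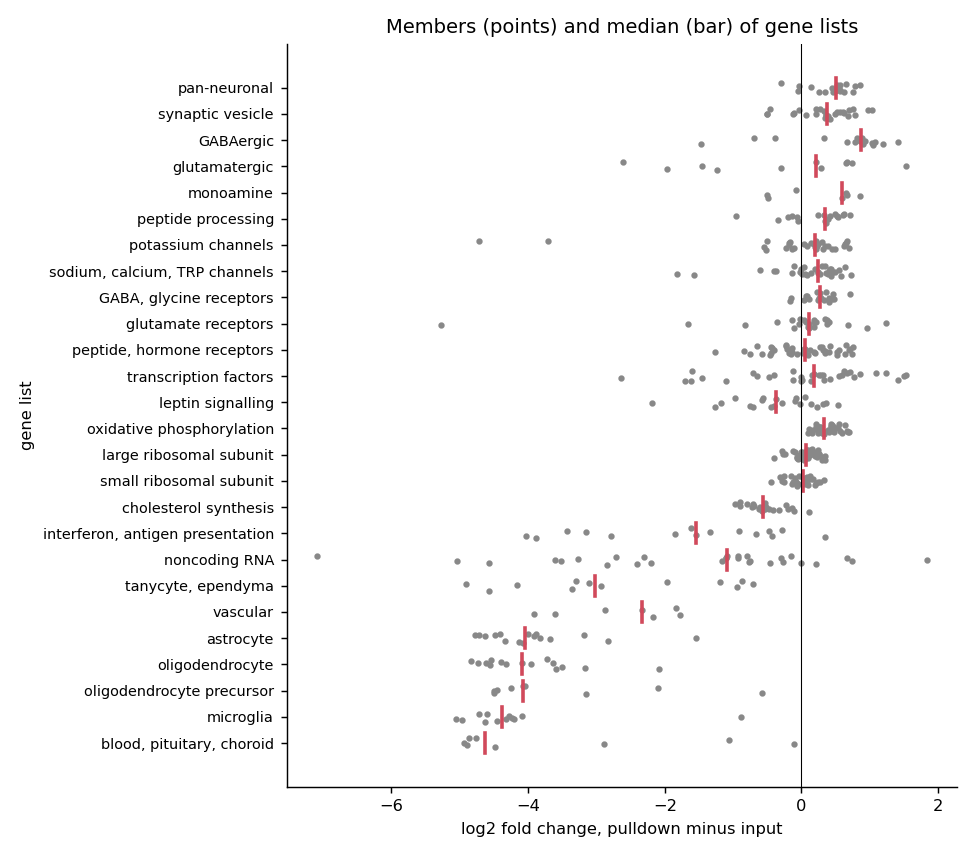
Log2 fold change of pulldown over input for the tested members (points) and their median (bar) of 26 gene lists. GABAergic and pan-neuronal lists have medians of 0.87 and 0.50, while astrocyte, oligodendrocyte and microglia lists have medians of -4.04, -4.09 and -4.39.

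Enrichment after Lepr deletion was set against that of the 4 control pools, which share no library with it. Across the 13573 genes tested in both genotypes, log2 fold changes had a Pearson r of 0.982, which is across genes and within one protocol, and 2 genes were called in opposite directions. A test of the difference itself, deletion minus control over 16 libraries, called 3 of 13715 genes (0.0219%) at an adjusted p under 0.05, while 10.2% had an unadjusted p under 0.05. For the 4 markers the differences were -0.01 (SE 0.17) for Pnoc, 0.08 (SE 0.06) for Gad1, -0.02 (SE 0.09) for Sst and -0.05 (SE 0.14) for Ghrh on the log2 scale, with adjusted p of 0.662 to 0.994. No difference was detectable for them at this number of pools.

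The 3 genes were Aim2, Serpina3n and Cartpt. Aim2 (chr1:173349547-173466040), a sensor of cytosolic DNA, had 3.30, 3.38, 2.91 and 3.04 CPM in the input of pools 5 to 8 and 1.30, 1.61, 1.51 and 1.51 CPM in their pulldown. In control it had 2.49, 1.88, 2.39 and 2.07 CPM in input and 0.348, 0.325, 0.271 and 0.354 CPM in pulldown. It was lower in pulldown in both genotypes, but less so after deletion (-1.09 against -2.77), a difference of 1.67 (SE 0.20), adjusted p = 0.00229. Length-scaled counts gave 1.09 (adjusted p = 0.512) and ended the calls of Serpina3n and Cartpt too (adjusted p = 0.103 for each). Serpina3n (chr12:104406646-104414334), a protease inhibitor and a member of the leptin signalling list, had 21.6, 19.8, 18.4 and 19.1 CPM in input and 9.18, 8.73, 8.44 and 8.65 CPM in pulldown after deletion. In control it had 15.1, 18.5, 17.7 and 20.4 CPM in input and 12.1, 15.6, 16.2 and 18.9 CPM in pulldown. Its pulldown values lay below all input values after deletion and reached into the input range in control, a difference of -0.98 (SE 0.15), adjusted p = 0.0372. Cartpt (chr13:99898483-99910179) had 33.1, 31.8, 33.6 and 33.2 CPM in input and 49.4, 49.3, 44.4 and 39.7 CPM in pulldown after deletion. In control it had 31.0, 34.5, 33.0 and 36.5 CPM in input and 66.7, 69.8, 66.7 and 73.8 CPM in pulldown. It was higher in pulldown in both genotypes, by 0.47 after deletion and 1.02 in control, a difference of -0.56 (SE 0.09), adjusted p = 0.0488. Leaving out 1 pool at a time ended the call of Serpina3n for pools 2, 3, 6, 7 and 8 (adjusted p 0.11 to 0.305) and that of Cartpt for every pool but pool 5 (adjusted p 0.0933 to 0.305), and filterByExpr ended that of Cartpt (adjusted p = 0.054), with the same sign throughout, and ended none for Aim2. Among genes with the next smallest p-values were Gja1, an astrocyte gap junction gene, at 0.91 (SE 0.17), adjusted p = 0.11, and Pgam5 at -0.44 (SE 0.09), adjusted p = 0.314. DESeq2, which gave no adjusted p for Aim2 or Serpina3n, called 16 genes, among them Cartpt, Gja1 and Pgam5, and the fit without pool 5 called 58.

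**Figure D5:**
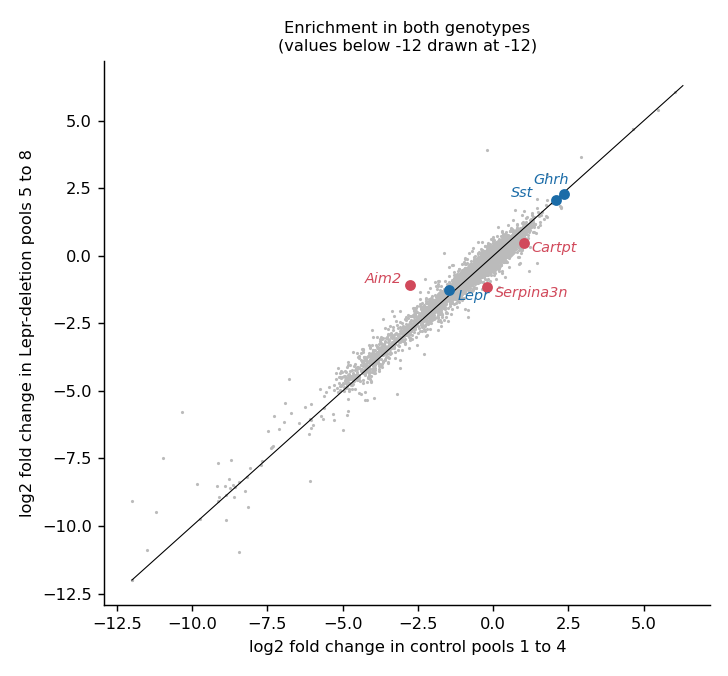
Log2 fold change of pulldown over input in Lepr-deletion pools (vertical) against control pools (horizontal) for genes tested in both, with the line of equality and values below -12 drawn at -12. Most genes follow the line, Aim2 lies above it, and Serpina3n and Cartpt lie below it.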

How the data were processed

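RNA of pulldown and of input aliquots taken from the same lysate before the immunoprecipitation was sequenced, 4 pools per genotype. Estimated counts, length-scaled counts and TPM per gene were deposited by the authors. Per the submitters' processing notes these used Salmon 1.10.1, DESeq2 1.38.3 and GRCm38. Tool roles, strand setting and filtering: not given in the sources used here. The authors also deposited log2 fold changes and adjusted p-values of their own comparisons.

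Here estimated counts were rounded, genes with a mean CPM of at least 1 were kept, libraries were scaled by TMM, and edgeR 4.0.16 under R 4.3.3 compared pulldown with input by its quasi-likelihood test, with Benjamini-Hochberg adjustment. The difference between genotypes was an interaction contrast over 16 libraries. Neither fit held a term for the pool, so libraries of the same lysate were treated as independent. Alternatives were other scalings and filters, DESeq2 1.42.0, length-scaled counts and limma 3.58.1 on log2(TPM + 1). Further ones were the pool as a replicate block, fits of all 16 libraries and fits without each library or pool. CPM values are TMM-scaled; those of the genotype comparison are scaled over 16 libraries. A count of 3 was worth 0.0483 to 0.0567 CPM in input and 0.0320 to 0.0390 CPM in pulldown. Replicates differed by more than counting noise (chi-square per degree of freedom 11.6 to 60.1 over 12 pairs).

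Equal pool numbers mark 1 lysate. Deviations of same-numbered libraries from their group means correlated at 0.181, 0.098, 0.193 and 0.164 for pools 5 to 8.

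Genes named are the fixed markers, the 12 largest changes in each direction with a mean log2 CPM of at least 2, without overlap and with an ordinary symbol, every tested peptide precursor, and from each other list members among its 4 highest levels and 2 largest changes in each direction; for the genotype difference, the 8 smallest p-values in each direction. Sh2b1, Stat3 and gene models without an ordinary symbol were chosen after their values were seen. The members and the 38 gene lists were chosen with earlier results of these data known. Some genes that this rule selects are not reported here.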

Additional observations from a re-analysis of the deposited data

Results flagged for a closer look

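In 11 of 292 groups of 4 libraries that were examined, the highest or lowest library stood apart from the other 3 (by the size of its gap relative to the group's range), and chance flags about 1 in 20 groups. In input pool 5 these were Chgb at 322 CPM, Scn1a at 119.5 CPM, Aldoc at 693 CPM, Jun at 41.2 CPM and Slc6a3 at 10.04 CPM. In input pool 8 they were Leprot at 9.44 CPM, Kcnj10 at 273 CPM and Cacng4 at 22.2 CPM. Among pulldown libraries they were Sh2b1 at 24.5 CPM in pool 5, Gja1 at 7.88 CPM in pool 7 and Lss at 25.1 CPM in pool 8.

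The enrichment of 3 genes differed between genotypes by the test of the difference itself (edgeR). On the log2 scale, deletion minus control, it was 1.67 for Aim2 (adjusted p = 0.00229), -0.98 for Serpina3n (adjusted p = 0.0372) and -0.56 for Cartpt (adjusted p = 0.0488). None of these calls held with length-scaled counts. Leaving out 1 pool ended those of Serpina3n and Cartpt for several pools, and that of Aim2 for none.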

How the results depend on the processing

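Against 4181 genes higher and 4565 lower, library totals gave 9522 and 2185, log2(TPM + 1) gave 11207 and 1407, and log2(TPM + 0.1) gave 11196 and 1402. Against 89 genes higher by more than 2-fold, the counts were 1028 with library totals, 243 without a filter, 182 with filterByExpr, 5097 on log2(TPM + 1) and 6220 on log2(TPM + 0.1). Against 1745 lower by more than 2-fold, they were 4514 without a filter, 3114 with filterByExpr, 633 on log2(TPM + 1) and 880 on log2(TPM + 0.1). Without 1 library or pool, 7465 to 8626 genes were called. With the pool as a replicate block 9098 genes were called, 4409 higher and 4689 lower, and the genotype difference called 4 genes, among them all 3 of the main result, and the block changed the call of no gene named in the text. The genotype difference called 16 genes with DESeq2, 0 with length-scaled counts in edgeR (1339 at an unadjusted p under 0.05) and 1 to 58 without 1 pool.

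Signs turned as follows, with values for log2(TPM + 1) and log2(TPM + 0.1) in that order. Leprot gave 0.45 and 0.49 (0.065 with library totals), Pdyn 0.10 and 0.11, Cpe 0.0016 and 0.0016, Gria1 0.12 and 0.12, Cacng4 0.35 and 0.38, Gch1 0.35 and 0.44 (0.0021 with totals), and Slc6a3 0.41 and 0.60 (0.035 with totals, and -0.67 to 0.076 without 1 library or pool). List medians gave 0.34 and 0.37 for cholesterol synthesis, 0.50 and 0.57 for leptin signalling (0.13 with totals), and 0.42 and 0.44 for neighbouring regions (0.11 with totals). Agrp, which is also the median of the AgRP neuron list, gave 0.90 and 0.97, 0.49 with totals, 0.016 with totals without mitochondrially encoded genes, 0.0020 with RLE factors, 0.067 without a filter, 0.041 with filterByExpr, 0.0013 with DESeq2, 0.021 with length-scaled counts, and -0.083 to 0.093 without 1 library or pool. The small-subunit median was -0.015 to 0.073 without 1 library or pool. The genotype difference of Pnoc was 0.0042 with RLE factors, 0.0045 with DESeq2, 0.0030 with length-scaled counts and -0.13 to 0.13 without 1 pool. That of Gad1 was -0.0022 with library totals. Without 1 pool, that of Sst was -0.078 to 0.0060 and that of Ghrh -0.12 to 0.0054. The causes of these changes were not tested.

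The 4 pools per group limit what the genotype difference can show.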
